A study of Homo sapiens with 12 samples.

Results

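Hyaluronan metabolism genes were followed in Calu-6 lung cancer cells after siRNA-mediated knockdown of *LAPTM4B*, with and without serum. The set holds 8 genes, namely the synthases *HAS1*, *HAS2* and *HAS3*, the receptors *CD44* and *HMMR*, and the hyaluronidases *HYAL1*, *HYAL2* and *HYAL3*. A gene was taken where an array feature carried its symbol and no other. This gave 5 of the 8 genes, out of 18417 genes with such a feature, and each of the 5 had 1 feature. *HAS1*, *HYAL1* and *HYAL3* are not listed with a single symbol in the annotation used and were not analysed here. The family was chosen by its knockdown values, because *HAS2* and *HMMR* had been seen to respond to siLAPTM4B in these same arrays. Differences between siLAPTM4B and siControl are therefore given for the 5 genes as descriptions, without a test. The comparisons between media were tested, although they share arrays with the knockdown comparisons through which *HAS2* and *HMMR* were noticed.

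Hyaluronan is a long unsulfated sugar polymer of the pericellular and extracellular matrix, built at the plasma membrane by the HAS enzymes from UDP-glucuronic acid and UDP-N-acetylglucosamine. Cells bind it through CD44, the main surface receptor, and through HMMR (RHAMM), which also works inside dividing cells at centrosomes and the mitotic spindle. HYAL2 is a GPI-anchored enzyme at the cell surface that cuts long chains, and HYAL1 digests the pieces in lysosomes. Hyaluronan-rich matrix and CD44 variants have been studied widely in lung and other carcinomas.

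Calu-6 is an established human lung cancer cell line, and all groups of the experiment came from it. Cells received a Dharmacon SMARTpool of scrambled siRNA (siControl) or of siRNA against *LAPTM4B* (siLAPTM4B) with Lipofectamine RNAiMAX. From the next day they were kept in DMEM/F12 with 10% FBS or with 0% FBS (serum-starved), and total RNA was isolated 48 h later, at 72 h from transfection. The 4 groups hold 3 independent transfections apiece, profiled on 12 Affymetrix Human Gene 1.0 ST arrays. One cell line and one siRNA pool were used, so effects of the pool on other transcripts cannot be told apart from those of *LAPTM4B* loss.

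The target checked the labels. *LAPTM4B* was 3.37-fold lower in siLAPTM4B than in siControl cells with 10% FBS (log2 difference -1.75, SE 0.044, limma adjusted *P* = 6.4e-07). It was 2.68-fold lower without serum (log2 difference -1.42, SE 0.046, limma adjusted *P* = 8.6e-06). Residual *LAPTM4B* was 1.39-fold higher in serum-starved than in serum-fed siLAPTM4B cells (limma adjusted *P* = 0.00011), and the knockdown was less deep without serum (difference between media 0.33, limma adjusted *P* = 0.035). Arrays correlated at 0.9969 to 0.9976 within a group and at 0.9934 to 0.9945 between groups, and 0 pairs of arrays were identical. The keratins *KRT8* and *KRT18* read above the upper quartile of all features on all 12 arrays, whereas *CDH1* and the alveolar genes *NKX2-1*, *SFTPB* and *SFTPC* read below the array median on all 12. Other epithelial markers varied, with *KRT7* between 9.11 and 11.17 and *EPCAM* between 8.20 and 9.89. The log2 signals of the 9 epithelial markers summed to 80.11 to 80.32 in siControl and 80.40 to 81.01 in siLAPTM4B cells with 10% FBS, and to 79.51 to 79.64 and 79.52 to 80.01 without serum. Such sums can hide opposite changes of single markers. On serum withdrawal 1 of the 9 was called higher and 1 lower in each siRNA group. Over all features 26.0% were called in siControl and 20.7% in siLAPTM4B cells. With knockdown 1 was called higher with 10% FBS and 1 lower without serum, where 4.08% and 2.33% of all features were called. The part of these markers in the results below was not tested. Of 5 leukocyte markers, 4 read below the array median on all 12 arrays and 1, *PTPRC*, below the lower quartile, while *LYZ* read 8.99 to 9.73. Of 9 fibroblast and endothelial markers, 5 read below the median on all 12 arrays and 1, *DCN*, below the lower quartile, while *COL1A1* read 8.47 to 8.72.

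*HAS2*, the synthase that makes most hyaluronan in many tissues, moved with serum in control cells and stood high in all 3 other groups. Values are log2 signals from Robust Multichip Array (RMA) processing, where 1 unit is a doubling. In siControl cells with 10% FBS, *HAS2* read 9.00, 9.01 and 9.17. In siLAPTM4B cells with 10% FBS it read 9.77, 9.83 and 9.77. The 3 control arrays with serum were thus the lowest of all 12, with a clear gap to the next. Without serum, *HAS2* read 9.93, 9.82 and 9.86 in siControl cells. Without serum it read 9.70, 9.71 and 9.79 in siLAPTM4B cells. These serum-starved groups did not overlap either, but here the knockdown arrays lay below the controls.

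**Figure D1:**
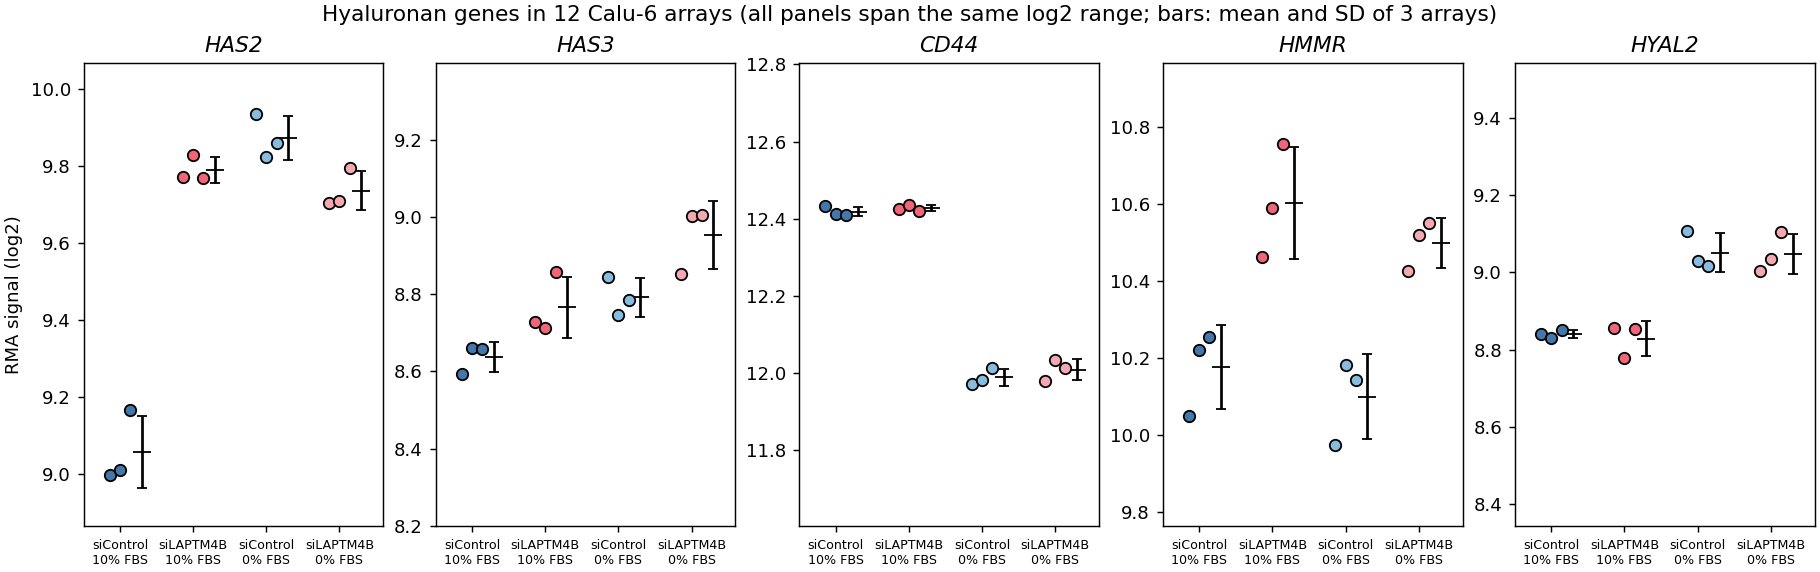
RMA signal (log2) of the 5 measured hyaluronan genes by group, one panel per gene; points are single arrays, and the bars give the mean and SD of 3 arrays. Every panel spans the same number of log2 units: *HAS2* is low only in siControl cells with 10% FBS, *CD44* and *HYAL2* part by serum, and *HMMR* parts by siRNA.

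Serum withdrawal raised *HAS2* in siControl cells from 9.06 ± 0.093 to 9.87 ± 0.057 (mean ± SD, n = 3 each), or 1.76-fold. The log2 difference was 0.81 (SE 0.057, 95% interval 0.68 to 0.95, limma adjusted *P* = 2.7e-05). The siControl arrays also entered the knockdown comparisons through which *HAS2* was noticed, so this test is not independent of that choice. Arrays with the same replicate number differed by 0.94, 0.81 and 0.70. In siLAPTM4B cells the same withdrawal gave a log2 difference of -0.05 (SE 0.051, 95% interval -0.17 to 0.06), which did not pass the test (limma adjusted *P* = 0.54), and the arrays overlapped.

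Between siRNAs, *HAS2* was 1.66-fold higher in siLAPTM4B than in siControl cells with 10% FBS, with a log2 difference of 0.73 (SE 0.057, 95% interval 0.60 to 0.86). Without serum it was lower in siLAPTM4B cells by a log2 difference of -0.14 (SE 0.050, 95% interval -0.25 to -0.024), or 1.10-fold. The knockdown difference without serum minus that with 10% FBS was -0.87 (SE 0.075, 95% interval -1.03 to -0.71) on the log2 scale. In the order of group means, siControl with 10% FBS stood alone at the bottom. The ranges of siLAPTM4B without serum and siLAPTM4B with 10% FBS overlapped, as did those of siLAPTM4B with 10% FBS and siControl without serum. RMA equalizes the distributions of the arrays and RNA came from whole cultures, so fewer expressing cells and less RNA per cell cannot be told apart here or for the genes below.

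*HAS3*, the synthase often described as making shorter chains, varied little. It read 8.59, 8.66 and 8.66 in siControl cells with 10% FBS and 8.85, 8.75 and 8.79 in siControl cells without serum. The serum-starved control arrays all lay above the serum-fed ones, and the 1.11-fold rise passed the test (log2 difference 0.15, SE 0.045, limma adjusted *P* = 0.036). The call was lost when any single array of the comparison was left out, with adjusted *P* between 0.051 and 0.099. In siLAPTM4B cells *HAS3* read 8.73, 8.71 and 8.86 with 10% FBS and 8.85, 9.00 and 9.01 without serum. These arrays overlapped, and the log2 difference of 0.19 (SE 0.064, 95% interval 0.045 to 0.33) did not pass the test (limma adjusted *P* = 0.068). It did pass with the replicate number as a block (adjusted *P* = 0.049) and without siLAPTM4B 0% FBS replicate 1 (adjusted *P* = 0.031).

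Between siRNAs, *HAS3* was higher in siLAPTM4B cells by a log2 difference of 0.13 (95% interval 0.0053 to 0.25) with 10% FBS and 0.16 (95% interval 0.033 to 0.29) without serum. The arrays did not overlap in either medium, although without serum the replicate 1 arrays differed by only 0.0068. The order of the *HAS3* means was siControl and siLAPTM4B with 10% FBS, then siControl and siLAPTM4B without serum, and the ranges of the middle groups overlapped. The *HAS3* knockdown difference moved between media by 0.03 (95% interval -0.14 to 0.20), against -0.87 for *HAS2*.

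*CD44* encodes the transmembrane receptor that ties hyaluronan to the actin cytoskeleton. The array gives one value per gene, so its splice variants were not resolved. With 10% FBS, *CD44* read 12.43, 12.41 and 12.41 in siControl and 12.42, 12.44 and 12.42 in siLAPTM4B cells. Without serum it read 11.97, 11.98 and 12.01 in siControl and 11.98, 12.03 and 12.01 in siLAPTM4B cells. The arrays fell into a serum-fed and a serum-starved set with no overlap, and within each medium the siRNA groups overlapped.

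Serum withdrawal lowered *CD44* 1.35-fold in siControl cells (log2 difference -0.43, SE 0.038, limma adjusted *P* = 9.5e-05). It lowered *CD44* 1.34-fold in siLAPTM4B cells (log2 difference -0.42, SE 0.046, limma adjusted *P* = 0.00019). The difference between siLAPTM4B and siControl was 0.01 (95% interval -0.086 to 0.10) with 10% FBS and 0.02 (95% interval -0.076 to 0.12) without serum. Of 9 fibroblast and endothelial markers, 0 were called higher and 2 lower on withdrawal in each siRNA group. Over all features 26.0% were called in siControl and 20.7% in siLAPTM4B cells. The median log2 difference of the 9 markers was -0.06 in siControl and 0.02 in siLAPTM4B cells. Their log2 signals, summed over 9 genes, ran from 67.31 to 68.01 in siControl cells with 10% FBS and from 64.09 to 64.79 without serum. In siLAPTM4B cells the sums ran from 66.26 to 67.01 and from 63.31 to 64.09. Of the 9 genes, *LUM* and *PDGFRB* were called lower on withdrawal in both siRNA groups and with knockdown in both media. The part of these markers in the *CD44* result was not tested.

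The bases just upstream of the *CD44* start are shown because *CD44* was the receptor that changed with serum. The window is chr11:35138921-35139170 on the plus strand of GRCh38.p14, taken from RefSeq, and capitals mark the only match among 6 motifs searched.
CD44: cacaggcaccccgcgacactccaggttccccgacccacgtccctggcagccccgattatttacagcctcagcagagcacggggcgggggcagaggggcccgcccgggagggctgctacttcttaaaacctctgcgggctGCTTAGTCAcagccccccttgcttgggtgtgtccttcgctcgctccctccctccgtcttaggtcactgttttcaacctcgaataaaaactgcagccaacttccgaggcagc
The motifs were the CCAAT box (CCAAT), 2 forms of the cell cycle gene homology region (TTTGAA and TTCGAA), the AP-1 site (TGANTCA), the FOXO site (GTAAACA) and the core of the antioxidant response element (TGANNNNGC), each read on both strands. The *CD44* match is to the antioxidant response element core, on the minus strand, from 111 to 103 bases upstream of the start. Of 35116 RefSeq promoter windows of the same 250 bases, 35.2% hold that core. The match is a description of letters and not a bound site.

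*HMMR* separated by siRNA, while its serum groups overlapped. With 10% FBS it read 10.05, 10.22 and 10.25 in siControl and 10.46, 10.59 and 10.75 in siLAPTM4B cells. Without serum it read 9.98, 10.18 and 10.14 in siControl and 10.43, 10.52 and 10.55 in siLAPTM4B cells. All 6 siLAPTM4B arrays lay above all 6 siControl arrays. In each of the 4 groups the replicate 1 array was the lowest.

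*HMMR* was 1.34-fold higher in siLAPTM4B cells with 10% FBS, with a log2 difference of 0.43 (SE 0.083, 95% interval 0.24 to 0.61). It was 1.32-fold higher without serum, with a log2 difference of 0.40 (SE 0.064, 95% interval 0.25 to 0.55). Arrays with the same number differed by 0.41, 0.37 and 0.50 with serum and by 0.45, 0.34 and 0.41 without. The knockdown difference moved between media by -0.03 (SE 0.11, 95% interval -0.27 to 0.22). Serum withdrawal did not pass the test for *HMMR* in siControl cells (log2 difference -0.08, 95% interval -0.24 to 0.091, limma adjusted *P* = 0.51). It did not pass in siLAPTM4B cells either (log2 difference -0.10, 95% interval -0.27 to 0.066, limma adjusted *P* = 0.41).

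**Figure D2:**
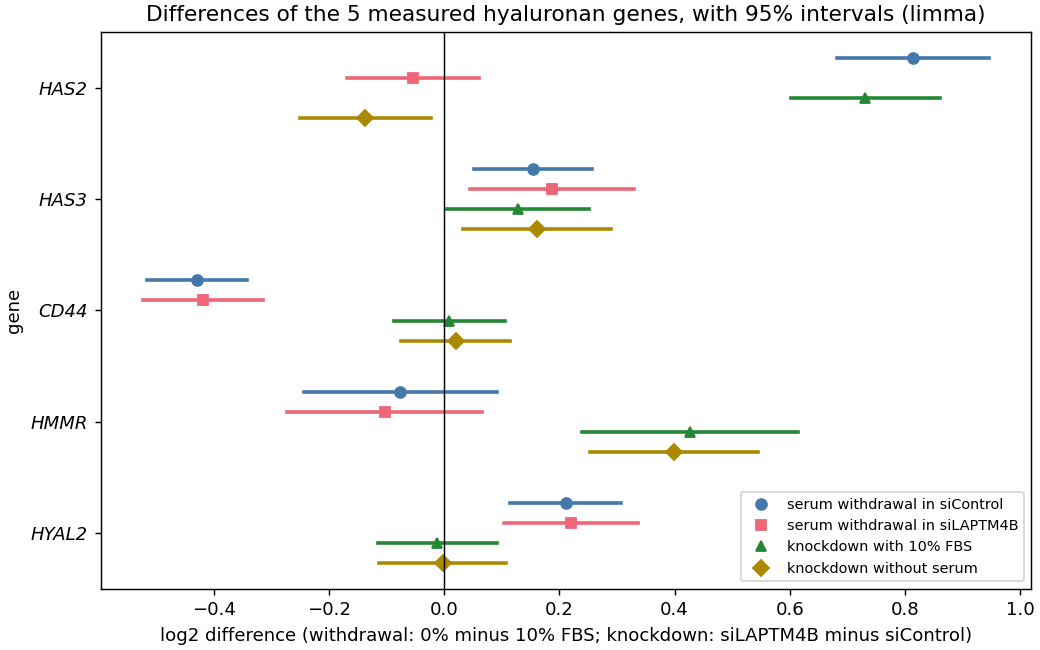
Log2 differences of the 5 measured genes with 95% intervals from limma (n = 3 arrays per group), for serum withdrawal (0% minus 10% FBS) and knockdown (siLAPTM4B minus siControl). *HAS2* shows a large difference for withdrawal in siControl (0.81) and for knockdown with 10% FBS (0.73). *CD44* and *HYAL2* show theirs for withdrawal in both siRNA groups, and *HMMR* shows its for knockdown in both media. *HAS3* shows smaller differences, all above 0, from 0.13 to 0.19.

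*HMMR* is transcribed mainly in the G2 and M phases, and its upstream bases are shown because they carry letters known from promoters of such genes. The window is chr5:163460382-163460631 on the plus strand of GRCh38.p14, from RefSeq. Capitals mark matches to CCAAT, which reads ATTGG on the minus strand, and to TTTGAA.
HMMR: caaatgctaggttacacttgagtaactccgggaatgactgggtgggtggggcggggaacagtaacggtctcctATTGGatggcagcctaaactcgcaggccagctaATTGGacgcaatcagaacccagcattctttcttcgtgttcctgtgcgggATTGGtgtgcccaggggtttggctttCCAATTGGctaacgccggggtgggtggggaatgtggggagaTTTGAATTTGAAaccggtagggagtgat
CCAAT matched 5 times, the last pair overlapping in the run CCAATTGG, and TTTGAA matched 2 times in tandem from 28 to 17 bases upstream of the start. At least 5 CCAAT matches were found in 0.319% of the 35116 windows, and at least 2 TTTGAA matches in 1.72%. At least 1 CCAAT occurs in 32.0% of windows, and at least 1 TTTGAA in 13.3%. Among the other 3 motifs, TTCGAA occurs in 1.19%, TGANTCA in 6.57% and GTAAACA in 2.98% of windows, and *HMMR* holds none of these letters nor the antioxidant response element core. In the windows of the G2 and M phase list described next, CCAAT was found in 24 of 33 (72.7%), and CCAAT together with TTTGAA or TTCGAA in 14 of 33 (42.4%), against 5.05% of all windows. The RefSeq promoter table used here held 7 of the 8 hyaluronan genes. In it *HAS1* had 1 TTTGAA match, *HYAL3* had 2 antioxidant response element core matches, and the windows of *HAS3*, *HYAL1* and *HYAL2* held none of the 6 motifs.

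The G2 and M phase list, 29 of 30 genes measured, stands beside *HMMR* as the genes of the same phases. The list mean per array ran from 11.35 to 11.41 in siControl and from 11.45 to 11.54 in siLAPTM4B cells with 10% FBS. Without serum it ran from 11.28 to 11.33 in siControl and from 11.29 to 11.37 in siLAPTM4B cells. The siRNA groups parted with serum and overlapped without it. Replicate 1 was lowest for the list mean in 4 of 4 groups, as it was for *HMMR*.

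With 10% FBS, 4 of the 29 genes were called higher in siLAPTM4B cells and 0 lower, where 4.08% of all features were called. All 29 differences lay above 0, with a median log2 difference of 0.09 against 0.0043 over all features. The called genes were the mitotic kinase *NEK2* (log2 difference 0.37), the kinetochore gene *NDC80* (0.35), the phosphatase *CDC25C* (0.28) and the spindle checkpoint gene *BUB1B* (0.24). Without serum limma called 0 of 29, where 2.33% of all features were called, and the median was 0.03. At an unadjusted *P* under 0.05 the higher genes numbered 4 and the lower 0. The share of all features at that looser threshold was not counted, so nothing is read from these numbers. On serum withdrawal 1 of the 29 was called higher and 6 lower in siControl cells, where 26.0% of all features were called, with a median of -0.09. In siLAPTM4B cells 1 was called higher and 11 lower, where 20.7% of all features were called, with a median of -0.16. *KIF20A*, a kinesin of cytokinesis, fell by 0.34 in siControl and by 0.40 in siLAPTM4B cells on the log2 scale, while *BUB1B* rose by 0.34 and 0.17.

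**Figure D3:**
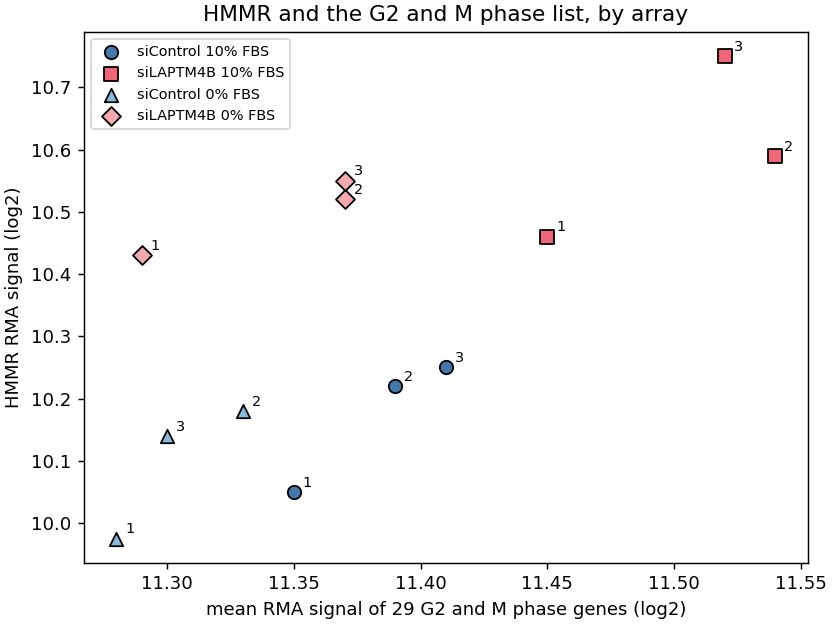
RMA signal of *HMMR* (y axis, log2) against the mean signal of 29 G2 and M phase genes (x axis, log2), one point per array, with symbols for the 4 groups and numbers for the replicate. The list mean runs from 11.28 to 11.54 and *HMMR* from 9.98 to 10.75, and the part of the list in the *HMMR* values was not tested.

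Of 7 partners of HMMR at the spindle, 0 were called by limma in either knockdown comparison. At an unadjusted *P* under 0.05, 3 were higher with 10% FBS and 1 was lower without serum. The share of all features at that threshold was not counted. On serum withdrawal, 1 was called higher and 3 lower in siControl cells, where 26.0% of all features were called. The calls in siLAPTM4B cells were 0 higher and 4 lower, where 20.7% of all features were called. *BRCA1*, whose product ubiquitinates HMMR, fell by 0.22 and 0.34 on the log2 scale. *AURKA*, the mitotic kinase, fell by 0.21 and 0.22, and its activator *TPX2*, a binding partner of HMMR, fell by 0.17 and 0.23. *FAM83D* fell by 0.22 in siLAPTM4B cells and was not called in siControl cells (log2 difference 0.02, limma adjusted *P* = 0.78). *BARD1*, the partner of BRCA1, rose by 0.17 in siControl cells.

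*HYAL2*, the cell surface hyaluronidase, rose on serum withdrawal. It read 8.84, 8.83 and 8.85 in siControl cells with 10% FBS and 9.11, 9.03 and 9.02 without serum. In siLAPTM4B cells it read 8.86, 8.78 and 8.85 with 10% FBS and 9.00, 9.03 and 9.11 without serum. All 6 serum-starved arrays lay above all 6 serum-fed arrays.

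The rise of *HYAL2* was 1.16-fold in siControl cells (log2 difference 0.21, SE 0.042, limma adjusted *P* = 0.0071). It was 1.16-fold in siLAPTM4B cells (log2 difference 0.22, SE 0.052, limma adjusted *P* = 0.015). In siLAPTM4B cells the adjusted *P* became 0.05, just above the threshold, when the second 0% FBS replicate was left out, and 0.062 when the third was. The siRNA groups overlapped in both media, with knockdown differences of -0.012 (95% interval -0.12 to 0.091) with 10% FBS and -0.0028 (95% interval -0.11 to 0.11) without serum. In RefSeq's GRCh38.p14 annotation *HYAL2* lies beside *HYAL1* and *HYAL3* on chromosome 3.

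Counted together, 4 of the 5 genes were called on serum withdrawal in siControl cells, 3 higher and 1 lower, where 26.0% of all 19460 features tested were called, 13.2% higher and 12.9% lower. In siLAPTM4B cells 2 of the 5 were called, 1 higher and 1 lower, where 20.7% of all features were called, 9.74% higher and 11.0% lower. That count was 1 without siLAPTM4B 0% FBS replicate 2 or replicate 3. With knockdown, 3 of the 5 did not overlap between siRNA groups in each medium, where 24.5% of all features did not overlap with 10% FBS and 21.3% without serum. Those comparisons chose the genes, so nothing is read from these counts.

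Across the 12 arrays, *CD44* and *HYAL2* ran opposite to each other (Pearson r = -0.953), and *HAS3* followed *HYAL2* (r = 0.72). *HAS2* and *HMMR* were only loosely related (r = 0.319). These values describe arrays that share 4 group means and carry no test. The 5 genes with the pattern most like *HAS2* over the 12 arrays were *UEVLD* (r = 0.975), *SF3B1* (0.947), *MCL1* (0.946), *SHC4* (0.943) and *VPS72* (0.943). *SHC4*, an SHC adaptor, had log2 differences of 0.75 for knockdown with 10% FBS and 0.87 for withdrawal in siControl cells, beside 0.73 and 0.81 for *HAS2*. For knockdown without serum and withdrawal in siLAPTM4B cells it had 0.12 and 0.25, where *HAS2* had -0.14 and -0.05. The other 4 spanned at most 0.30 for withdrawal in siControl cells. *MCL1*, the anti-apoptotic BCL2 relative, differed by 0.21 and 0.30.

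For *HMMR* the nearest genes were *CARD8* (r = 0.965), *CENPF* (0.96), *ANKRD46* (0.931), *APOBEC3B* (0.929) and *WDR74* (0.928). *CENPF*, a kinetochore protein, is also on the G2 and M phase list and differed by 0.19 with 10% FBS and 0.14 without serum between siRNA groups. For *CD44* they were *BCS1L* (0.993), *CCN2* (0.993), *RARB* (0.992), *SMAD9* (0.992) and *FRMD3* (0.991). On serum withdrawal in siControl cells these differed by -0.45 for *BCS1L*, -0.88 for *CCN2*, the matricellular growth factor, and -2.16 for *RARB*, a retinoic acid receptor. *CD44* differed by -0.43, close to *BCS1L* in size and smaller than the others.

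**Figure D4:**
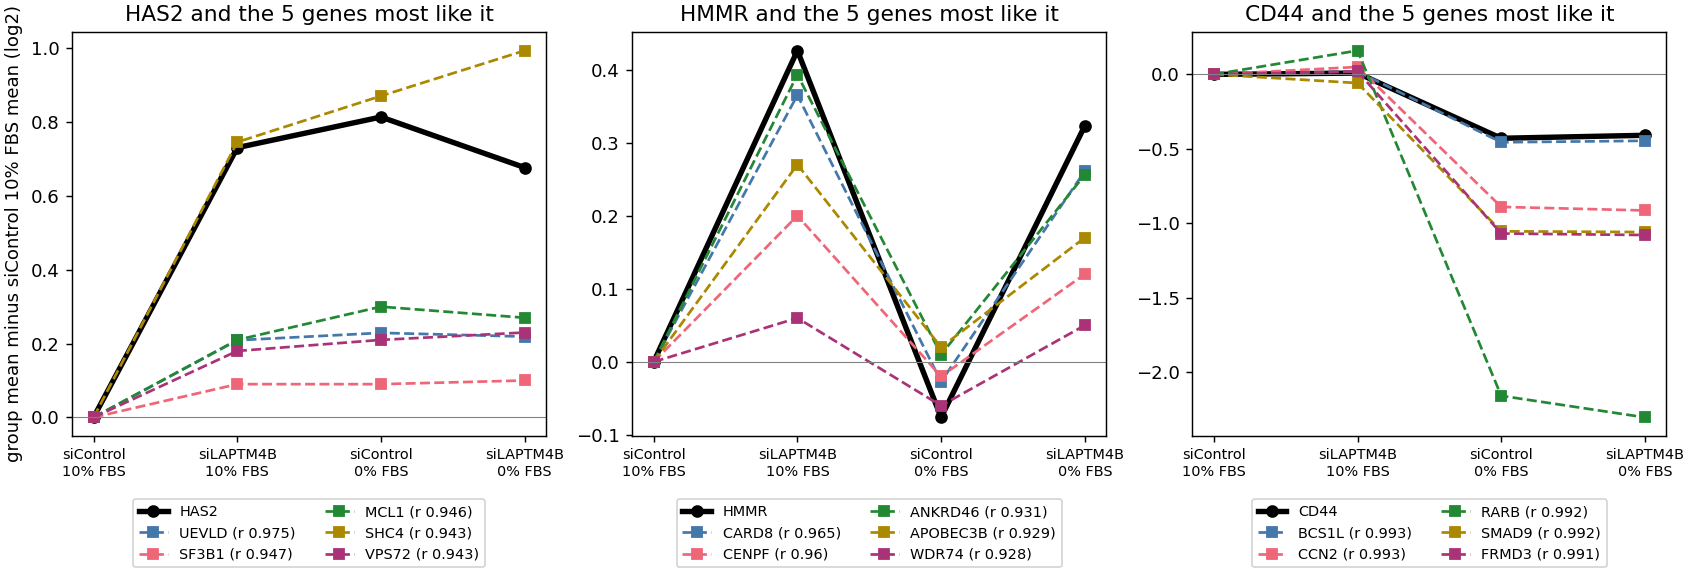
Group means of *HAS2*, *HMMR* and *CD44* (black) and of the 5 genes with the highest Pearson r to each over 12 arrays, as log2 difference from the siControl 10% FBS mean. *SHC4* lies near *HAS2* in siLAPTM4B cells with 10% FBS and siControl cells without serum and above it in siLAPTM4B cells without serum, and *RARB* falls by far more than *CD44*.

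Beyond the family, 8 lists with 113 genes were read, of which 105 were measured. They include the G2 and M phase list (29 measured) and the spindle partners of HMMR (7 measured), which are not hyaluronan pathway genes. On serum withdrawal 36 of the 105 were called in siControl cells (21 higher, 15 lower), or 34.3%, where 26.0% of all features were called. In siLAPTM4B cells 37 were called (15 higher, 22 lower), or 35.2%, where 20.7% of all features were called. The G2 and M phase list gave 1 of the higher and 6 of the lower calls in siControl cells, and 1 and 11 in siLAPTM4B cells. With knockdown, 7 were called with 10% FBS (6 higher, 1 lower), or 6.67%, where 4.08% of all features were called. Of these 7, 4 were on the G2 and M phase list. Without serum 3 were called, all lower, or 2.86%, where 2.33% of all features were called. Both knockdown counts moved with single arrays. With 10% FBS the count was 2 or 3 when any array other than siLAPTM4B replicate 1 was left out, and without serum it was 1 when any array other than siLAPTM4B replicate 3 was left out. For the difference between media, 0 were called by limma, where 0.262% of all features were called. An unadjusted *P* under 0.05 was reached by 19, and the share of all features at that looser threshold was not counted.

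**Figure D5:**
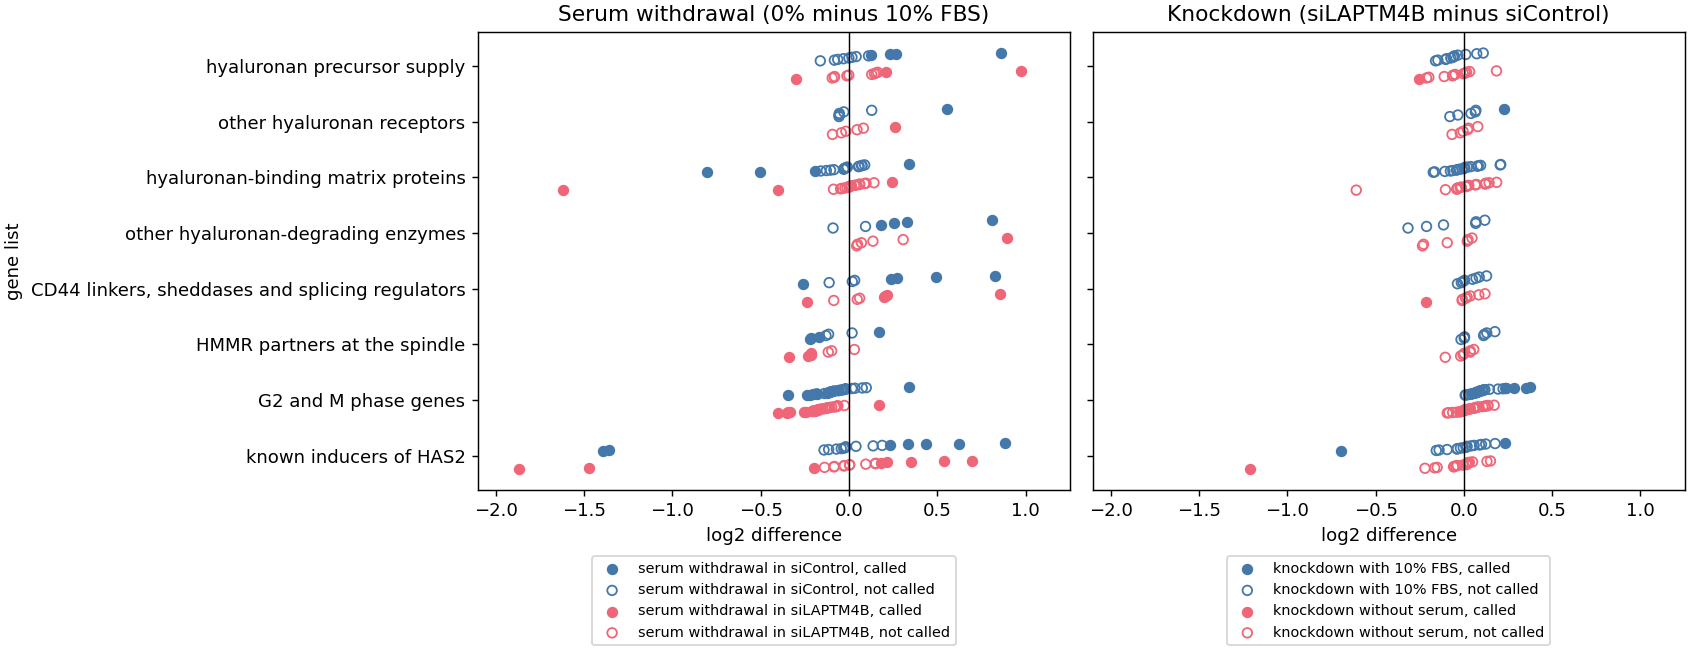
Log2 differences of the genes of the 8 pathway lists, for serum withdrawal (left) and knockdown (right); filled points passed the test (limma adjusted *P* under 0.05) and open points did not. The widest spread is in the inducers of *HAS2* and in the matrix proteins on serum withdrawal, and the knockdown differences crowd around 0 apart from *PTGS2* and, without serum, *PTX3* (-0.61, not called).

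Precursor supply, the genes that make the UDP-sugars, had 4 of 12 measured genes called higher and 0 lower on withdrawal in siControl cells. Over all features 13.2% were called higher and 12.9% lower, and the median log2 difference of the list was 0.03. *HK2*, a hexokinase, rose 1.82-fold, *UGDH*, which makes UDP-glucuronic acid, 1.20-fold and the N-acetylglucosamine kinase *NAGK* 1.18-fold. In siLAPTM4B cells 2 were called higher and 1 lower, beside 9.74% higher and 11.0% lower of all features. There *HK2* rose 1.96-fold and *NAGK* 1.16-fold, and the phosphoglucomutase *PGM1* fell 1.23-fold. *UGDH* was also the only one of the 12 called with knockdown, 1.19-fold lower without serum (limma adjusted *P* = 0.046). Over all features 2.33% were called with knockdown without serum and 4.08% with 10% FBS. The methods' t-test called 0 of the pathway genes for knockdown without serum.

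Other receptors comprised 6 genes, and *TLR4*, the innate immune receptor that senses hyaluronan fragments, was the only one called. Over all features 26.0% were called on withdrawal in siControl cells, 20.7% in siLAPTM4B cells and 4.08% for knockdown with 10% FBS. *TLR4* rose on withdrawal 1.47-fold in siControl and 1.20-fold in siLAPTM4B cells. It was 1.17-fold higher in siLAPTM4B than siControl cells with 10% FBS (limma adjusted *P* = 0.037). Without serum its knockdown difference was -0.07 (limma adjusted *P* = 0.58). Set beside it, *HAS2* had knockdown differences of 0.73 and -0.14. *TLR4* was not alone in this change of sign among the listed genes. The matrix genes *PTX3* (0.21 and -0.61) and *HAPLN3* (0.21 and -0.10) also changed sign, and neither was called with knockdown in either medium. The *TLR4* difference between media, -0.29, did not pass the test (limma adjusted *P* = 0.077).

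Among 19 hyaluronan-binding matrix proteins, 1 was called higher and 3 lower on withdrawal in siControl cells, where 26.0% of all features were called. Withdrawal in siLAPTM4B cells gave 1 higher and 2 lower, where 20.7% of all features were called. *PTX3*, a pentraxin that crosslinks hyaluronan matrix, fell 1.75-fold in siControl and 3.08-fold in siLAPTM4B cells. *VCAN* (versican), the large hyaluronan-binding proteoglycan, fell 1.42-fold and 1.32-fold. The link protein gene *HAPLN3* rose 1.27-fold and the inter-alpha-trypsin inhibitor chain *ITIH4* fell 1.14-fold in siControl cells, and *IMPG2* rose 1.18-fold in siLAPTM4B cells. With knockdown 0 of the 19 were called by limma in either medium, and 4 in each had an unadjusted *P* under 0.05. The share of all features at that unadjusted threshold was not counted.

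Of 6 other measured genes listed under hyaluronan degradation, 4 were called higher and 0 lower on withdrawal in siControl cells. Over all features 13.2% were called higher, and the median of the list was 0.22 against -0.02 over all features. *CEMIP*, which depolymerizes hyaluronan without being a HYAL enzyme, rose 1.75-fold, *HYAL4* 1.26-fold and *CEMIP2* 1.19-fold, beside 1.16-fold for *HYAL2*. The *HYAL4* signal was dim, from 5.97 to 6.81 over all arrays, beside array lower quartiles of 6.145 to 6.195. In siLAPTM4B cells 1 of the 6 was called, *CEMIP*, which rose 1.86-fold, where 9.74% of all features were called higher. *CEMIP* was 1.24-fold lower in siLAPTM4B cells with 10% FBS and 1.17-fold lower without serum, and neither passed the test (limma adjusted *P* = 0.096 and 0.078).

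CD44 linkers, sheddases and splicing regulators had 4 of 8 measured genes called higher and 1 lower on withdrawal in each siRNA group, beside 13.2% higher and 12.9% lower of all features in siControl and 9.74% and 11.0% in siLAPTM4B cells. *MMP14*, a membrane protease that cleaves CD44, rose 1.77-fold in siControl and 1.81-fold in siLAPTM4B cells. The sheddases *ADAM17* and *ADAM10* rose 1.41-fold and 1.21-fold in siControl cells and 1.15-fold and 1.16-fold in siLAPTM4B cells. The linker *NF2* (merlin) fell 1.20-fold and 1.18-fold. With knockdown, *ADAM17* was called without serum, 1.16-fold lower, and no other of the 8 was called in either medium. Over all features 2.33% were called without serum and 4.08% with 10% FBS. By the methods' t-test 0 of the pathway genes were called for knockdown without serum.

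Known inducers of *HAS2* had 5 of 18 measured genes called higher and 2 lower on withdrawal in siControl cells, beside 13.2% higher and 12.9% lower of all features. *PDGFA*, a platelet-derived growth factor chain, rose 1.84-fold, the EGF-receptor ligand *HBEGF* 1.54-fold and *FGF2* 1.35-fold. *TGFB2* fell 2.62-fold, and *PTGS2*, the inducible cyclooxygenase, fell 2.56-fold. In siLAPTM4B cells 5 were called higher and 3 lower, beside 9.74% higher and 11.0% lower of all features, with *PDGFA* up 1.62-fold, *HBEGF* up 1.45-fold, *TGFB2* down 2.77-fold and *PTGS2* down 3.66-fold. With knockdown *PTGS2* was 1.62-fold lower with 10% FBS and 2.32-fold lower without serum, and *PDGFA* was 1.18-fold higher with 10% FBS. The part of these genes in the *HAS2* values was not tested.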

How the data were processed

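RNA from 12 Calu-6 cultures was hybridized to Affymetrix Human Gene 1.0 ST arrays. The authors deposited log2 signals made by RMA in BRB-ArrayTools, which normalizes quantiles between arrays. The library file and annotation version are not given in the sources used here. Of 33252 features, 19460 carried exactly 1 gene symbol in the platform annotation, 1754 several and 12038 none, and 0 columns stayed unmapped. Groups came from the labels. Per gene the feature with the highest mean over 12 arrays was used.

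Each comparison was fitted to its 6 arrays with limma 3.58.1 (R 4.3.3), one prior variance for all features, and the difference between media to all 12 arrays. Benjamini-Hochberg adjustment ran over the 19460 features, with calls made below an adjusted P of 0.05. The fit was tested on simulated data. P-values measure the spread among 3 transfections, and the number of arrays limits the precision. The genes and lists were chosen, from general knowledge, with earlier results of these data known. Named genes were the 8 hyaluronan genes, *LAPTM4B*, the 5 genes most correlated with *HAS2*, *HMMR* and *CD44*, and up to 3 called genes per list, direction and comparison.

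Replicate numbers come from the labels. Deviations from group means correlated at 0.2631, 0.1147 and 0.1533 between siControl media for numbers 1, 2 and 3. The correlations were 0.2401, 0.1217 and -0.09966 between siLAPTM4B media. Between siRNAs they were 0.298, 0.1609 and -0.02105 with 10% FBS, and 0.2758, 0.04556 and 0.04971 without serum. Arrays with unlike numbers were not compared and the labels name no batch or day, so pairing by number was not established. Alternatives left out single arrays, used a replicate block, all features, no dim features, an intensity trend with a robust prior, 1 fit of all 12 arrays, the methods' t-test, or arrays centred on their medians. Promoter windows are the 250 bases before RefSeq starts in GRCh38.p14 (35116 windows of 27305 genes).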

Additional observations from a re-analysis of the deposited data

Results flagged for a closer look

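*HAS2* differed in its response to *LAPTM4B* knockdown between media. With 10% FBS all 3 siLAPTM4B arrays lay above all 3 siControl arrays, and without serum all 3 lay below, so the direction was opposite in every array. The knockdown difference without serum minus that with 10% FBS was -0.868 on the log2 scale. This difference was not tested, since these comparisons led to the choice of the gene. Without serum the gap between the groups was small, from 9.79 for the highest siLAPTM4B array to 9.82 for the lowest siControl array.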

How the results depend on the processing

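Members called on serum withdrawal in siControl cells numbered 3 or 4 under all 12 alternatives, and those in siLAPTM4B cells, 2 as reported, numbered 1 to 3 when single arrays were left out. *HAS2* and *CD44* kept their calls in siControl cells, and *CD44* in siLAPTM4B cells, under all 12 alternatives, and *HMMR* passed under none. *HAS3* in siControl cells lost its call in 9 of 12 alternatives (adjusted *P* from 0.028 to 0.099 over all 12), and in siLAPTM4B cells gained one in 4 (0.023 to 0.21). The replicate block turned the *HAS3* call in siLAPTM4B cells (adjusted *P* = 0.049), changed no other member call, and gave 4 and 3 called members in the siControl and siLAPTM4B media comparisons. The log2 knockdown differences stayed between 0.701 and 0.785 with 10% FBS and between -0.167 and -0.106 without serum for *HAS2*, and between 0.35 and 0.496 and between 0.337 and 0.44 for *HMMR*. Each measured hyaluronan gene had 1 feature, so averaging several features per gene did not arise for them and was not run.

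Pathway genes called without serum, 3 as reported, numbered 1 to 4 when single arrays were left out, 5 with a replicate block, 1 over all features, 12 with an intensity trend and robust prior, 6 in 1 fit of all 12 arrays and 0 by the methods' t-test. With 10% FBS, 7 as reported, the counts were 2 to 6 with single arrays left out, 2 over all features, 20 with the trend and robust prior, 14 in 1 fit of 12 arrays and 4 by the methods' t-test. For serum withdrawal they were 30 to 45 in siControl and 25 to 54 in siLAPTM4B cells. The cause was not tested. No detection calls were used, so dim list genes were not separated from array background.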
